A study of Mus musculus with 8 samples.

Results

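The mitochondrial ribosomal proteins are the nuclear-encoded proteins whose symbols start with Mrpl, for the large subunit, or Mrps, for the small subunit. Every row of the count table whose symbol was Mrpl or Mrps followed by a number and at most 1 letter was taken, which gave 78 genes of 21812 symbols, 49 of the large and 29 of the small subunit by name. Of these, 77 passed the filter on low counts and were tested. The other one, Mrpl53, had 0 counts in all 8 libraries; in the GENCODE M21 annotation 88.0% of its exon bases are shared with Gm42688, and the annotation used for counting is not stated.

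Mitochondria make a small set of respiratory chain and ATP synthase subunits on their own ribosome. Its rRNAs are transcribed from the mitochondrial genome, while all its proteins are made in the cytosol and imported. Many of the proteins have a bacterial homologue, and others were added in the mitochondrial lineage. Mouse embryonic stem cells draw on both glycolysis and respiration.

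Total RNA was sequenced from mouse embryonic stem cells (mESC) grown in PrE-induce medium, which promotes primitive endoderm, the extraembryonic layer that forms beside the epiblast. There were 4 groups with 2 libraries each: cells with a conditional knockout of Mettl3 (Mettl3 cKO) and their wild-type controls (Mettl3 WT), and cells with a conditional knockout of Virma (Virma cKO) and their wild-type controls (Virma WT). Mettl3 is the catalytic subunit and Virma a scaffold of the complex that writes N6-methyladenosine on mRNA. The labels give no clone, no Cre driver, no strain and no word on whether the libraries come from separate cultures; p-values therefore reflect library-to-library spread, which may be technical. The 2 Virma cKO libraries agree within sampling noise and were counted as 1 sample, with no SD of its own. Libraries held 15568628 to 17306227 counts, and the Mettl3 WT pair stood apart with 15415 and 15452 genes with a count, against 16476 to 17086 in the other 6 libraries. Mettl3 itself had 35.4 and 33.9 CPM in Mettl3 cKO, against 35.7 and 35.2 in Mettl3 WT, so its RNA was not called lower in the libraries labelled Mettl3 cKO (log2 fold change -0.036 ± 0.071, adjusted p = 0.695 by edgeR, ± SE here and throughout). Virma had 70.8 and 73.8 CPM in Virma cKO, against 93.3 and 88.8 in Virma WT (-0.33 ± 0.064, adjusted p = 0.000102). Mettl3 was called lower in the Virma line, with 34.1 and 33.6 CPM in Virma cKO, against 45.8 and 44.3 in Virma WT (-0.42 ± 0.085, adjusted p = 0.000232). Counts over a whole gene do not check a deletion of part of it. The 10 primitive endoderm markers summed to 4933 to 4968 CPM in Mettl3 cKO against 7720 to 7766 in Mettl3 WT, and to 927.6 to 941.3 in Virma cKO against 5834 to 5882 in Virma WT. The 10 fibroblast markers summed to 334.6 to 335.4 CPM in Mettl3 cKO against 176.0 to 185.5 in Mettl3 WT, and to 987.5 to 996.2 in Virma cKO against 424.8 to 425.8 in Virma WT. Of the primitive endoderm markers 8 and 10 were called lower in the Mettl3 and the Virma line, and of the fibroblast markers 9 and 10 were called higher. The 7 pluripotency markers summed to 1728 to 1777 CPM in Mettl3 cKO against 1800 to 1814 in Mettl3 WT, and to 1081 to 1091 in Virma cKO against 1805 to 1835 in Virma WT. Of these 3 were called higher and 3 lower in the Mettl3 line, and 1 higher and 4 lower in the Virma line. The 8 trophectoderm markers summed to 835.0 to 877.9 CPM in Mettl3 cKO against 885.8 to 895.2 in Mettl3 WT, with 3 called higher and 3 lower, and to 1160 to 1166 in Virma cKO against 877.1 to 896.2 in Virma WT, with 3 called higher and 2 lower. No marker of these lists was at 0 in any group, and the part of these shifts in the results given here was not tested. In bulk RNA, fewer cells of a type and less RNA per cell cannot be told apart.

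The start regions of 4 members that moved the same way in both lines are shown here, chosen after their values were seen. They are Mrpl43 and Mrpl46, with the largest rises in Mettl3 cKO, and Mrpl49 and Mrps22, with the largest falls there in each subunit. Each run holds 150 bases before to 30 bases after the RefSeq start, 5′ to 3′ on the gene's strand, in the build GRCm38.p6: chr19:45006413-45006592, chr7:78783060-78783239, chr19:6057726-6057905 and chr9:98601650-98601829, all on the minus strand. Capitals mark the letters CCGGAAG, bound by ETS factors such as GABPA, or AAGATGGC, bound by YY1; both factors are known regulators of nuclear genes for mitochondrial proteins.
Mrpl43: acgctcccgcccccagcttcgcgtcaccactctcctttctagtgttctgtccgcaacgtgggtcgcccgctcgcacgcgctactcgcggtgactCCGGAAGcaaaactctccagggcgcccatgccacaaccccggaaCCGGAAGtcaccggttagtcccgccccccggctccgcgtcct
Mrpl46: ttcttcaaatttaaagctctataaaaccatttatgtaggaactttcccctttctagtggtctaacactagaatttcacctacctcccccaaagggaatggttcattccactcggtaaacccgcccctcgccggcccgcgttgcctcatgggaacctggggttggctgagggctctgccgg
Mrpl49: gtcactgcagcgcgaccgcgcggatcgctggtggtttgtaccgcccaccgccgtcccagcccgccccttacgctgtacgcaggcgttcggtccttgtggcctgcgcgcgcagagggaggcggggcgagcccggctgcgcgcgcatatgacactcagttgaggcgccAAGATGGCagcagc
Mrps22: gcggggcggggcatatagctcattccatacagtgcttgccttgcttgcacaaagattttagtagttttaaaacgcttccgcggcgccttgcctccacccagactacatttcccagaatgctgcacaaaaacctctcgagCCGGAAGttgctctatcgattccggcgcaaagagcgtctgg
The Mrpl43 run holds CCGGAAG at 2 places and the Mrps22 run at 1, the Mrpl49 run holds AAGATGGC just after its start, and the Mrpl46 run holds neither. RefSeq promoters of 300 bases, 250 before and 50 after the start, were found for 69 of the 78 genes, 75 promoters in all. On either strand CCGGAAG stood in 34.7% of the 75 promoters, against 15.9% of the 14317 promoters of genes tested and 8.86% of all 32851 promoters. AAGATGGC stood in 16.0% of them, against 4.0% of promoters of genes tested and 2.75% of all. GCATGCGC, the core bound by NRF1, stood in 10.7%, against 4.81% and 2.71%. The plainer CCAAT stood in 40.0%, against 37.6% and 37.4%, and TATAAA in 6.67%, against 7.3% and 13.6%. Each string was searched on its own, and matches that overlap another string were kept. CCGGAAG stood in 40.0% of the 45 promoters of genes called higher in Mettl3 cKO, in 1 of the 5 promoters of genes called lower and in 25.0% of the 24 promoters of genes not called. Split by the calls in Virma cKO, it stood in 30.8% of the promoters of genes called higher, in 27.6% of those called lower and in 40.6% of those not called. These shares count promoters, not genes. Mrpl48, Mrpl2 and Mrps16 have several promoters each, all among those not called in Mettl3 cKO, where a share per gene would be higher. In the Virma split, Mrpl2 and Mrps16 are among those called lower and Mrpl48 among those not called. No difference between these shares was tested.

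In Mettl3 cKO most mitochondrial ribosomal protein genes were higher than in Mettl3 WT. The 78 genes summed to 5910 and 5938 CPM in Mettl3 cKO, against 4523 and 4542 CPM in Mettl3 WT, where CPM are counts scaled by library size and TMM factor; the ratio of the means was 1.31. Of the 77 genes tested, 54 rose and 5 fell, and 18 did not pass the threshold (edgeR quasi-likelihood test, Benjamini-Hochberg adjusted p under 0.05). Among all 14229 genes tested 27.1% were called higher and 28.0% lower. The median log2 fold change of the 77 was 0.314, against 0.009 over all genes tested. Both subunits shared the direction: 32 of 48 large subunit genes rose and 3 fell, with a median of 0.309, and 22 of 29 small subunit genes rose and 2 fell, with a median of 0.371. The summed level in Mettl3 cKO was 1.29 times that in Mettl3 WT for the large and 1.35 times for the small subunit.

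**Figure D1:**
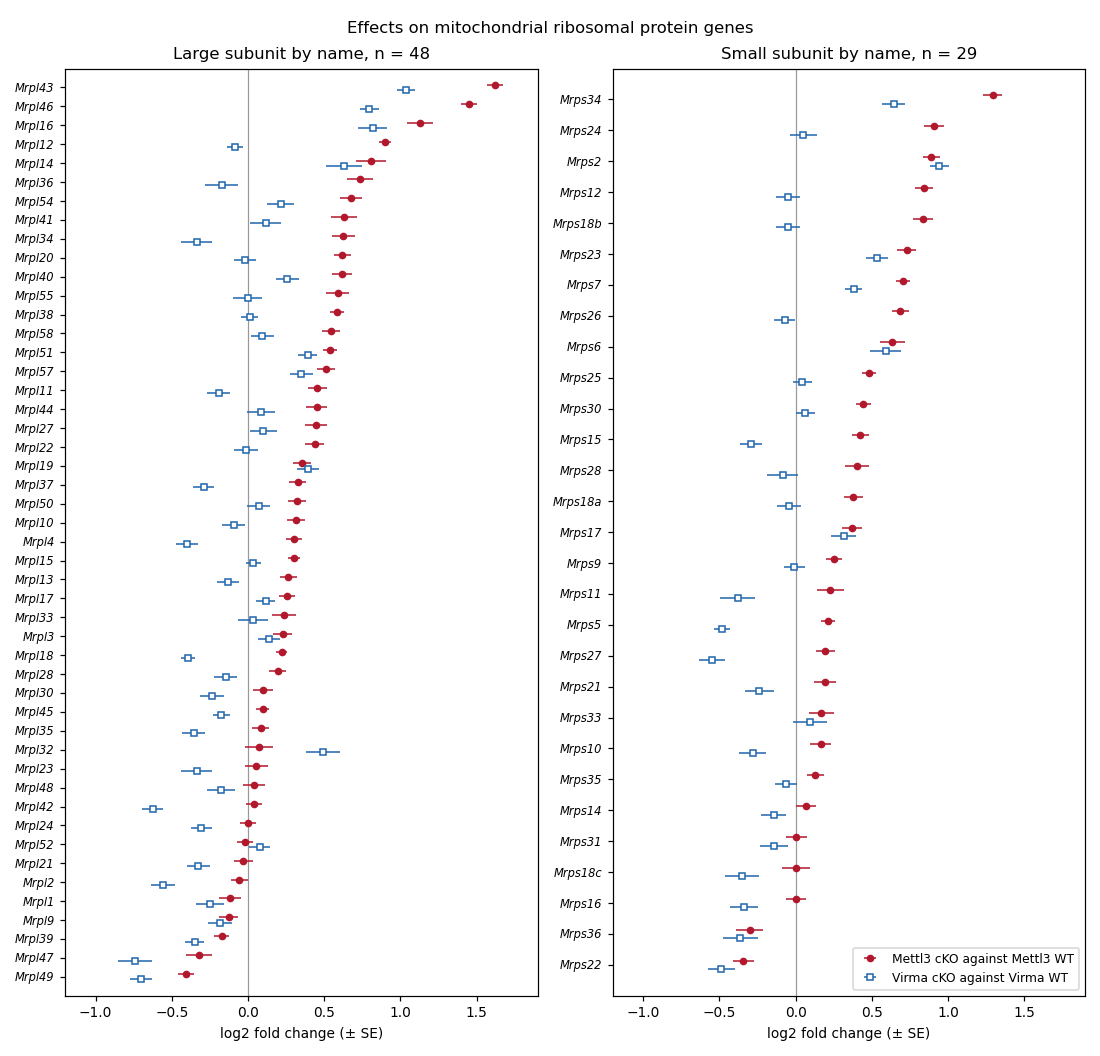
Log2 fold change with its standard error for the 77 genes tested, large subunit on the left and small subunit on the right, sorted by the Mettl3 effect; filled circles are Mettl3 cKO against Mettl3 WT and open squares Virma cKO against Virma WT. Most circles lie right of 0, 54 of them called, while the squares spread to both sides, with 16 called higher and 27 called lower.

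The largest rises of the large subunit were in Mrpl43, Mrpl46, Mrpl16 and Mrpl12. Mrpl43, a protein without a bacterial homologue, had 173 and 192 CPM in Mettl3 cKO, against 57.6 and 61.0 in Mettl3 WT. The groups lay far apart, and the log2 fold change by edgeR was 1.62 ± 0.053 (adjusted p = 4.88e-17). Mrpl46, a protein of the central protuberance, had 109 and 111 CPM in Mettl3 cKO, against 41.4 and 39.0 in Mettl3 WT, and rose by 1.45 ± 0.054 (adjusted p = 4.21e-16). Mrpl16, the homologue of bacterial L16, had 66.5 and 64.1 CPM in Mettl3 cKO, against 25.5 and 34.2 in Mettl3 WT; its Mettl3 WT libraries differed from each other more than those of the genes above but stayed well below both Mettl3 cKO libraries (1.13 ± 0.085, adjusted p = 7.52e-11). Mrpl12, which forms the stalk that recruits translation factors, had 247 and 252 CPM in Mettl3 cKO, against 128 and 139.7 in Mettl3 WT (0.90 ± 0.041, adjusted p = 1.3e-14). The other stalk proteins also rose, Mrpl10 by 0.31 ± 0.057 and Mrpl11 by 0.45 ± 0.062.

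In the small subunit the leading genes were Mrps34, Mrps24, Mrps2 and Mrps12. Mrps34, which has no bacterial homologue and is needed for stability of the 12S rRNA in mice, had 86.6 and 95.3 CPM in Mettl3 cKO, against 36.1 and 38.0 in Mettl3 WT (1.29 ± 0.062, adjusted p = 2.67e-14). Mrps24, the homologue of bacterial S3, had 103 and 105 CPM in Mettl3 cKO, against 50.4 and 60.5 in Mettl3 WT (0.91 ± 0.067, adjusted p = 5.66e-11). Mrps2, the homologue of bacterial S2, had 97.5 and 98.8 CPM in Mettl3 cKO, against 49.2 and 56.5 in Mettl3 WT (0.89 ± 0.057, adjusted p = 5.17e-12). Mrps12, at the decoding centre, had 75.0 and 71.6 CPM in Mettl3 cKO, against 39.3 and 42.5 in Mettl3 WT (0.84 ± 0.061, adjusted p = 4e-11). Both Mettl3 cKO libraries lay above both Mettl3 WT libraries in all 4 genes, which the rule for naming them required.

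**Figure D2:**
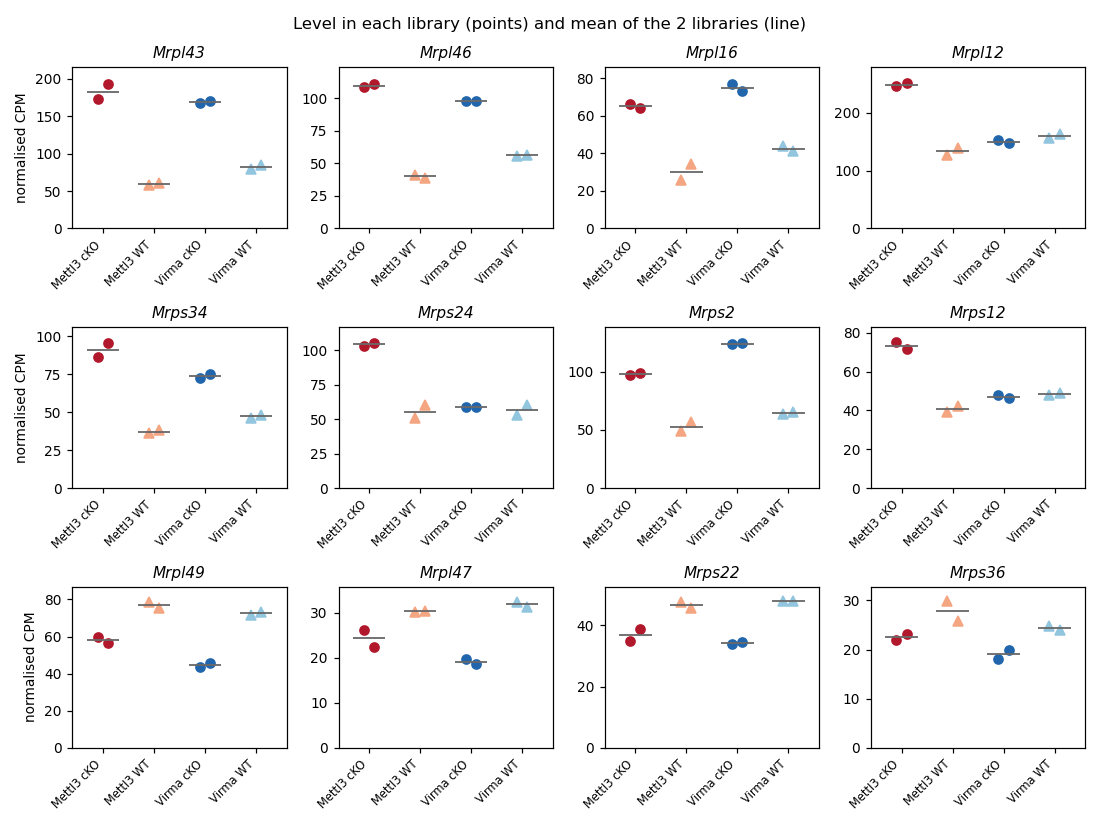
Normalised CPM of 12 genes in each library, with cKO libraries as circles, WT libraries as triangles and the mean of the 2 libraries as a line; every axis starts at 0. Mrpl12, Mrps24 and Mrps12 lie higher in the Mettl3 cKO pair than in any library of the other 3 groups, while Mrpl43, Mrpl46, Mrpl16, Mrps34 and Mrps2 are high in both cKO pairs and the genes of the bottom row are low in both.

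The 5 genes that fell were Mrpl49, Mrps22, Mrpl47, Mrps36 and Mrpl39. Mrpl49 had 59.6 and 56.8 CPM in Mettl3 cKO, against 78.7 and 75.5 in Mettl3 WT (-0.41 ± 0.054, adjusted p = 9.35e-07), and Mrps22 had 34.8 and 38.8 CPM in Mettl3 cKO, against 47.7 and 45.6 in Mettl3 WT (-0.34 ± 0.070, adjusted p = 0.000199). Both are proteins that the mitochondrial ribosome has and the bacterial one lacks. Mrpl47, the homologue of bacterial L29, had 26.2 and 22.4 CPM in Mettl3 cKO, against 30.3 and 30.4 in Mettl3 WT (-0.32 ± 0.086, adjusted p = 0.0029); without Mettl3 cKO replicate 2 its log2 fold change was -0.211 with an adjusted p of 0.102. Mrps36, which carries a ribosomal name but is known as a component of the 2-oxoglutarate dehydrogenase complex, had 21.9 and 23.1 CPM in Mettl3 cKO, against 29.8 and 25.8 in Mettl3 WT (-0.30 ± 0.089, adjusted p = 0.00605), and without Mettl3 WT replicate 1 or Mettl3 cKO replicate 1 its adjusted p was 0.0606 or 0.0719. In the Virma line Mrps36 gave -0.36 ± 0.12 (adjusted p = 0.0111), with an adjusted p of 0.0661 without Virma WT replicate 1 and a value of -0.234 (adjusted p of 0.0927) with library totals as scaling. Mrpl39 had 75.8 and 76.3 CPM in Mettl3 cKO, against 82.8 and 88.7 in Mettl3 WT (-0.17 ± 0.051, adjusted p = 0.00563), and without Mettl3 WT replicate 2 its adjusted p was 0.0556.

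The genes were also grouped by origin, in a split made after the values were seen. In Mettl3 cKO 34 of 47 genes with a bacterial homologue rose (72.3%) and 1 fell (2.13%), with a median log2 fold change of 0.263. Of the 30 without one, 20 rose (66.7%) and 4 fell (13.3%), with a median of 0.446. Among all genes tested 27.1% were called higher and 28.0% lower. The difference between these groups was not tested. Within the Mrps18 paralogs, Mrps18b rose by 0.84 ± 0.068 (adjusted p = 3.3e-10) and Mrps18a by 0.38 ± 0.063 (adjusted p = 1.95e-05), while Mrps18c gave 0.0024 ± 0.092 (adjusted p = 0.987). The encoded proteins sit in different places, since Mrps18a, like Mrps30, is found in the large subunit in structures of the ribosome despite its name. Mrps30 rose by 0.44 ± 0.049. Mrpl58, a peptidyl-tRNA hydrolase built into the large subunit, rose by 0.54 ± 0.059.

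Per kilobase of exon, averaged over the 4 groups, the levels of the tested genes ran between 3.86 CPM per kb for Mrpl33 and 127 CPM per kb for Mrpl18. Mrpl12 followed with 113 and Mrpl43 with 81.0 CPM per kb, and at the low end Mrpl48 had 3.92 and Mrpl32 4.69 CPM per kb. Exon length was the union over all GENCODE M21 transcripts, so a gene with a long rare transcript is placed too low.

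In the Virma line the same genes split. They summed to 4507 and 4531 CPM in Virma cKO, against 4518 and 4565 CPM in Virma WT, a ratio of 0.995, yet 16 of the 77 rose, 27 fell and 34 did not pass the threshold. Among all genes tested 26.2% were called higher and 26.1% lower. The median log2 fold change was -0.065, against 0.02 over all genes. This split depended on the scaling: with library totals in place of TMM factors the median of all genes moved to 0.148, 26 of the 77 were called higher (33.8%, against 34.9% of all genes tested) and 13 lower (16.9%, against 18.4%), and their median was 0.063, which lay below that of all genes by the same 0.085 as with TMM. In the large subunit 10 genes rose and 17 fell, and in the small subunit 6 rose and 10 fell.

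The rises in Virma cKO were led by Mrpl43, Mrps2, Mrpl16 and Mrpl46. Mrpl43 had 167 and 170.0 CPM in Virma cKO, against 79.8 and 84.4 in Virma WT (1.03 ± 0.060, adjusted p = 7.69e-13). Mrps2 had 124 and 125 CPM in Virma cKO, against 63.5 and 65.5 in Virma WT (0.94 ± 0.065, adjusted p = 1.45e-11). Mrpl16 had 76.7 and 73.0 CPM in Virma cKO, against 43.6 and 41.2 in Virma WT (0.82 ± 0.094, adjusted p = 9.59e-08), and Mrpl46 had 97.7 and 98.0 CPM in Virma cKO, against 55.8 and 56.8 in Virma WT (0.79 ± 0.062, adjusted p = 1.47e-10). All 4 were also among the largest rises in Mettl3 cKO. Further rises were those of Mrps34 (0.64 ± 0.073), of Mrpl14, the docking site of the assembly factor Malsu1 (0.63 ± 0.12), of Mrps6, the homologue of bacterial S6 (0.59 ± 0.10), and of Mrps23 (0.53 ± 0.073).

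Among the falls, Mrpl47 had 19.7 and 18.5 CPM in Virma cKO, against 32.5 and 31.4 in Virma WT (-0.74 ± 0.11, adjusted p = 4.47e-06). Mrpl49 had 43.7 and 45.7 CPM in Virma cKO, against 71.7 and 73.3 in Virma WT (-0.70 ± 0.071, adjusted p = 1.34e-08). Mrpl42 had 90.8 and 95.9 CPM in Virma cKO, against 142 and 145 in Virma WT (-0.62 ± 0.068, adjusted p = 4.36e-08), and Mrpl2, the homologue of the bacterial L2 at the peptidyl transferase centre, had 36.7 and 33.7 CPM in Virma cKO, against 52.3 and 51.5 in Virma WT (-0.56 ± 0.078, adjusted p = 1.91e-06). In the small subunit the falls were led by Mrps27, a pentatricopeptide repeat protein, with 54.6 and 56.0 CPM in Virma cKO, against 78.8 and 82.6 in Virma WT (-0.55 ± 0.085, adjusted p = 7.37e-06). Mrps22 fell by 0.49 ± 0.087, Mrps5 by 0.48 ± 0.055 and Mrps11 by 0.38 ± 0.12 on the log2 scale. In each of these genes the libraries of Virma cKO lay below those of Virma WT, which the rule for naming them also required.

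Set side by side, 15 of the 77 genes were higher in both cKO groups (19.5%, against 13.7% of all genes tested) and 5 were lower in both (6.49%, against 14.2%). In the mixed pattern, 11 genes, 14.3%, were higher in Mettl3 cKO and lower in Virma cKO, against 3.63% of all genes, and 0 showed the reverse, against 3.13% of all genes. The 15 genes make up 93.8% of the genes higher in Virma cKO and 27.8% of those higher in Mettl3 cKO. The 5 genes lower in both are all those lower in Mettl3 cKO and 18.5% of those lower in Virma cKO. Over all genes tested, 1948 were higher in both, out of 3721 higher in Virma cKO and 3857 higher in Mettl3 cKO. Lower in both were 2026, out of 3978 lower in Mettl3 cKO and 3718 lower in Virma cKO. Of the 77 genes, 70.1% were higher in Mettl3 cKO whatever their call in Virma cKO. Mrpl32 was the 1 gene higher in Virma cKO and not in Mettl3 cKO. Across the 77 genes the log2 fold changes of the lines had a Spearman correlation of 0.685, against 0.476 over all 14229 genes; the comparisons share no libraries, but the genes share libraries and depth within each. Mrpl48, Mrpl52, Mrpl9, Mrps14, Mrps31 and Mrps33 were called in neither line.

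**Figure D3:**
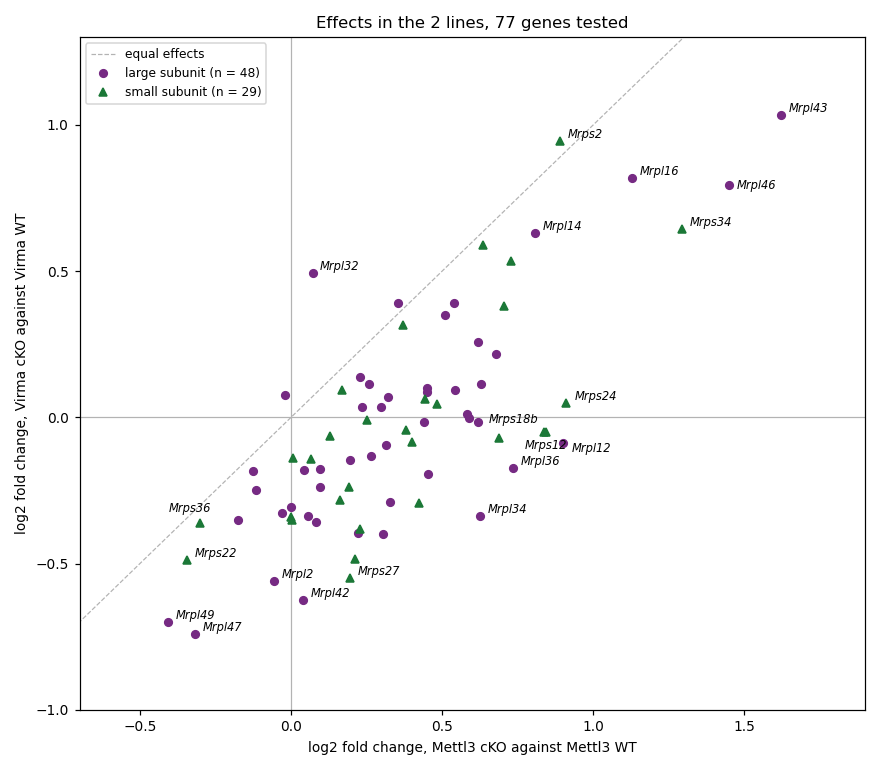
Log2 fold change in the Virma line (vertical) against that in the Mettl3 line (horizontal) for the 77 genes tested, with circles for the large and triangles for the small subunit and a dashed line where both effects are equal. All but 4 points lie below the dashed line, Mrps2 and Mrpl43 stand at the upper right, and Mrpl49 and Mrpl47 at the lower left.

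The genes of the mixed pattern included Mrpl34, Mrpl4, Mrps15, Mrpl37, Mrps11 and Mrpl18, all with bacterial homologues but Mrpl37. Mrpl34 had 45.9 and 47.3 CPM in Mettl3 cKO, against 29.5 and 30.9 in Mettl3 WT (0.62 ± 0.075, adjusted p = 1.81e-07). In the other line it had 22.8 and 24.6 CPM in Virma cKO, against 31.8 and 28.1 in Virma WT (-0.34 ± 0.10, adjusted p = 0.00793), a fall that had an adjusted p of 0.127 without Virma WT replicate 1 and of 0.0882 with library totals as scaling. Mrpl4 had 79.2 and 84.4 CPM in Mettl3 cKO, against 68.6 and 64.0 in Mettl3 WT (0.30 ± 0.054, adjusted p = 4.86e-05), and 56.4 and 56.0 CPM in Virma cKO, against 73.5 and 74.6 in Virma WT (-0.40 ± 0.070, adjusted p = 3.61e-05). Mrpl18, the member with the highest level per kilobase, had 221 and 224 CPM in Mettl3 cKO, against 192 and 190.2 in Mettl3 WT (0.22 ± 0.034, adjusted p = 8.05e-06), and 126 and 132 CPM in Virma cKO, against 167 and 171 in Virma WT (-0.40 ± 0.046, adjusted p = 1.06e-07). Mrps15 gave 0.42 ± 0.054 and -0.29 ± 0.071, and Mrpl37 gave 0.33 ± 0.055 and -0.29 ± 0.070, as log2 fold changes in the Mettl3 and the Virma line. Library totals as scaling also ended the Virma falls of Mrps15 (-0.167, adjusted p of 0.0534), Mrpl37 (-0.163, adjusted p of 0.056) and Mrps11 (-0.253, adjusted p of 0.0691), so that 4 of these 6 genes lost that call. The Mrps11 rise in Mettl3 cKO, 0.23 ± 0.092 (adjusted p = 0.0377), was a weak call that leaving out Mettl3 WT replicate 2, either Mettl3 cKO library or either Virma WT library ended (adjusted p between 0.0678 and 0.158). The Mrps27 rise in Mettl3 cKO, 0.20 ± 0.065 (adjusted p = 0.0134), was 0.063 without Mettl3 WT replicate 1, with an adjusted p of 0.347. With gene length and GC content trends removed, the rises of Mrpl4 and Mrpl18 in Mettl3 cKO were 0.089 and 0.07 with adjusted p of 0.159 and 0.0828, and those of Mrps11 and Mrps27 were 0.004 and 0.028.

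The difference itself, the Virma effect minus the Mettl3 effect, was tested as a contrast in the same fit. It was below 0 and called for 52 of the 77 genes and above 0 for 1, against 21.2% and 17.9% of all genes tested. Its median was -0.363, against -0.005 over all genes. The most negative differences were those of Mrpl12 (-0.99 ± 0.067, adjusted p = 3.63e-11), Mrpl34 (-0.96 ± 0.13, adjusted p = 1.59e-06) and Mrpl36 (-0.91 ± 0.14, adjusted p = 1.13e-05). Mrpl36, the homologue of the short bacterial protein L36, had 34.9 and 32.1 CPM in Mettl3 cKO, against 18.9 and 21.3 in Mettl3 WT, and 23.7 and 24.4 CPM in Virma cKO, against 27.8 and 26.2 in Virma WT. Mrps12 (-0.89 ± 0.099, adjusted p = 1.2e-07), Mrps18b (-0.89 ± 0.11, adjusted p = 3.7e-07) and Mrps24 (-0.86 ± 0.11, adjusted p = 1.19e-06) came next. The Mrps18b levels were 58.9 and 62.8 CPM in Mettl3 cKO, against 32.2 and 35.9 in Mettl3 WT, and 52.1 and 50.0 CPM in Virma cKO, against 54.3 and 51.2 in Virma WT, so that the Mettl3 WT pair was the low one of the 4 groups. Mrpl32 had the 1 positive call, 0.42 ± 0.14 (adjusted p = 0.0213), with 27.4 and 28.0 CPM in Virma cKO, against 20.0 and 19.3 in Virma WT, and 24.0 and 23.2 CPM in Mettl3 cKO, against 20.8 and 24.1 in Mettl3 WT; without Mettl3 cKO replicate 2 or Virma WT replicate 2 its adjusted p was 0.0765 or 0.0877, under DESeq2 it was 0.137, and with length and GC trends removed the difference was 0.218 with an adjusted p of 0.258. For Mrps2 the difference was 0.053 ± 0.087 (adjusted p = 0.679), beside rises of 0.89 ± 0.057 and 0.94 ± 0.065 in the Mettl3 and the Virma line.

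The control groups differed too. Of the 77 genes, 19 were higher and 17 lower in Virma WT than in Mettl3 WT, against 25.4% and 22.2% of all genes tested, with a median log2 difference of 0.017. Mrps18b was higher in Virma WT by 0.63 ± 0.070 (adjusted p = 7.5e-08), Mrpl16 by 0.51 ± 0.090 (adjusted p = 5.88e-05) and Mrpl46 by 0.49 ± 0.059 (adjusted p = 3.14e-07). Set against the Virma WT libraries, the Mettl3 cKO libraries were called higher in 59 and lower in 4 of the 77 genes, against 29.3% and 29.2% of all genes tested, with a median of 0.329, against 0.004 over all genes. With that control the Mrps5 value was -0.096, with an adjusted p of 0.0596, against a rise of 0.21 ± 0.044 over its own control.

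The 5 mitochondrial ribosomal proteins that do not carry the Mrp name were read beside them. Gadd45gip1, a large subunit protein at the exit of the peptide tunnel, had 162 and 164 CPM in Mettl3 cKO, against 87.2 and 94.4 in Mettl3 WT (0.84 ± 0.044, adjusted p = 1.6e-13) and gave 0.32 ± 0.058 in the Virma line. The small subunit protein Chchd1 rose in both lines, by 0.62 ± 0.054 and 0.32 ± 0.068. Aurkaip1, also of the small subunit, rose by 0.32 ± 0.039 in Mettl3 cKO and gave -0.16 ± 0.049 (adjusted p = 0.00723) in Virma cKO. Its rise was 0.04 with length and GC trends removed, and its fall had an adjusted p of 0.056 without Virma WT replicate 2. Dap3, the GTP-binding protein of the small subunit, had 103 and 107 CPM in Mettl3 cKO, against 139 and 135 in Mettl3 WT (-0.38 ± 0.043, adjusted p = 7.05e-08), and 66.0 and 63.8 CPM in Virma cKO, against 103 and 104 in Virma WT (-0.67 ± 0.059, adjusted p = 1.13e-09). Against the Virma WT libraries the Mettl3 cKO value of Dap3 was 0.027. Ptcd3, a pentatricopeptide repeat protein, gave -0.13 ± 0.045 (adjusted p = 0.0196) in Mettl3 cKO, which turned to 0.102 with length and GC trends removed and to -0.084 (adjusted p of 0.24) without Mettl3 cKO replicate 2, and -0.32 ± 0.058 in Virma cKO.

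Among the factors that build the ribosome, 16 of 26 assembly and rRNA modification factors rose (61.5%) and 1 fell (3.85%) in Mettl3 cKO. Among all genes tested 27.1% were called higher there and 28.0% lower. The median log2 fold change of the 26 was 0.325. In Virma cKO 7 rose and 7 fell (26.9% each), near the 26.2% and 26.1% of all genes tested, with a median of 0.135. Mrm3, which methylates the 16S rRNA, had 38.6 and 36.6 CPM in Mettl3 cKO, against 16.1 and 14.1 in Mettl3 WT (1.32 ± 0.089, adjusted p = 1.13e-11), and 30.2 and 27.1 CPM in Virma cKO, against 16.8 and 17.3 in Virma WT (0.75 ± 0.11, adjusted p = 3.13e-06). Mterf4, the partner of the methyltransferase Nsun4 in large subunit assembly, had 53.4 and 51.7 CPM in Mettl3 cKO, against 24.8 and 20.2 in Mettl3 WT (1.22 ± 0.081, adjusted p = 8.85e-12), and 48.7 and 49.2 CPM in Virma cKO, against 28.3 and 29.4 in Virma WT (0.76 ± 0.095, adjusted p = 3.12e-07). The helicase Ddx28 rose by 1.03 ± 0.080 and 0.40 ± 0.11, while Ngrn, needed for stable 16S rRNA, rose by 0.76 ± 0.063 in Mettl3 cKO and gave -0.071 ± 0.086 (adjusted p = 0.516) in Virma cKO. Rpusd4, a pseudouridine synthase of the 16S rRNA, was the 1 that fell in Mettl3 cKO, with 17.1 and 16.8 CPM in Mettl3 cKO, against 28.7 and 25.1 in Mettl3 WT (-0.67 ± 0.094, adjusted p = 2e-06), and it fell in Virma cKO too, with 12.4 and 10.5 CPM in Virma cKO, against 23.7 and 25.3 in Virma WT (-1.09 ± 0.13, adjusted p = 1.44e-07).

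For the translation factors and the mitochondrial aminoacyl-tRNA synthetases the medians in Mettl3 cKO lay close to 0. Of 17 translation factors 8 rose (47.1%) and 2 fell (11.8%) in Mettl3 cKO, against 27.1% and 28.0% of all genes tested. Their median was -0.004. In Virma cKO 2 rose (11.8%) and 6 fell (35.3%), against 26.2% and 26.1% of all genes tested, with a median of -0.057. Mtres1, which rescues stalled ribosomes, rose by 0.85 ± 0.066 (adjusted p = 1.45e-10) and by 0.53 ± 0.084 (adjusted p = 1.07e-05). Tsfm, the exchange factor of the elongation factor Tufm, rose by 0.79 ± 0.084 in Mettl3 cKO. Gfm2, which recycles ribosomes, fell by 0.15 and 0.46 on the log2 scale in Mettl3 cKO and Virma cKO; its Mettl3 value was -0.14 with an adjusted p of 0.0676 without Mettl3 cKO replicate 2. Of 17 mitochondrial aminoacyl-tRNA synthetases 6 rose (35.3%) and 4 fell (23.5%) in Mettl3 cKO, near the shares of all genes tested. Their median was 0.012. In Virma cKO 3 rose (17.6%) and 7 fell (41.2%), with a median of -0.178. Mars2, which charges methionine tRNA, had 1.63 and 2.01 CPM in Virma cKO, against 10.4 and 10.9 in Virma WT (-2.55 ± 0.27, adjusted p = 2.87e-08). In the Mettl3 line Mars2 had 5.29 and 5.51 CPM in Mettl3 cKO, against 6.89 and 10.2 in Mettl3 WT (-0.67 ± 0.18, adjusted p = 0.00262), a value of -0.352 with an adjusted p of 0.0709 without Mettl3 WT replicate 2. Fars2, for phenylalanine, rose by 0.70 ± 0.11 and 0.73 ± 0.13.

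Of 13 tested genes of mitochondrial transcription and its nuclear regulators, 7 rose (53.8%) and 2 fell (15.4%) in Mettl3 cKO. Among all genes tested 27.1% were called higher there and 28.0% lower. In Virma cKO 2 rose (15.4%) and 1 fell (7.69%), below the 26.2% and 26.1% of all genes tested. Tefm, the mitochondrial transcription elongation factor, rose by 0.76 ± 0.10 and 0.72 ± 0.13. Gabpa, the ETS factor named above, had 93.4 and 99.6 CPM in Mettl3 cKO, against 109 and 104 in Mettl3 WT (-0.15 ± 0.046, adjusted p = 0.00924), and 149.7 and 152 CPM in Virma cKO, against 119 and 119.8 in Virma WT (0.34 ± 0.052, adjusted p = 8.02e-06). Its fall in Mettl3 cKO was not called without Mettl3 WT replicate 1 or Mettl3 cKO replicate 1 (adjusted p of 0.0587 and 0.156) and turned to 0.071 with length and GC trends removed. Yy1 had 130.2 and 133 CPM in Mettl3 cKO, against 147 and 151 in Mettl3 WT (-0.18 ± 0.041, adjusted p = 0.000655), and fell by 0.29 ± 0.049 in Virma cKO. Nrf1 rose by 0.21 ± 0.053 (adjusted p = 0.00158) in Mettl3 cKO.

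The proteins of the mitochondrial genome, which this ribosome makes, gave 8 rises (61.5%) and 2 falls (15.4%) of 13 in Mettl3 cKO. Among all genes tested 27.1% were called higher there and 28.0% lower. The median of the 13 was 0.577. Among the rises, mt-Nd3, mt-Nd4l, mt-Co2, mt-Co3, mt-Atp6 and mt-Atp8 had means of only 0.1499 to 3.475 CPM in Mettl3 WT. At higher levels mt-Nd4 and mt-Nd6 rose, mt-Nd5 and mt-Co1 fell, and mt-Nd1, mt-Nd2 and mt-Cytb were not called. In Virma cKO there were 6 rises (46.2%) and 1 fall (7.69%), against 26.2% and 26.1% of all genes tested, with a median of 0.404. The 2 rRNAs of the mitochondrial genome are not analysed here. The largest folds came from genes with few counts in the Mettl3 WT libraries: mt-Atp6 had 17.7 and 18.8 CPM in Mettl3 cKO, against 3.66 and 3.29 in Mettl3 WT, and 21.2 and 20.7 CPM in Virma cKO, against 13.2 and 14.9 in Virma WT; mt-Co2 had 8.18 and 7.75 CPM in Mettl3 cKO, against 2.16 and 0.838 in Mettl3 WT, and 8.15 and 7.96 CPM in Virma cKO, against 8.00 and 7.04 in Virma WT. The Mettl3 WT pair was thus the low one of the 4 groups for both. mt-Nd3 had 1.02 and 0.726 CPM in Mettl3 cKO, against 0.300 and 0 in Mettl3 WT, and 39.7 and 36.9 CPM in Virma cKO, against 21.8 and 20.3 in Virma WT, so its level differed more between the lines than within either. mt-Co1, at much higher levels, fell in both lines, with 4508 and 4378 CPM in Mettl3 cKO, against 5894 and 5696 in Mettl3 WT (-0.38 ± 0.026, adjusted p = 1.28e-11), and 4143 and 4075 CPM in Virma cKO, against 6995 and 6637 in Virma WT (-0.73 ± 0.033, adjusted p = 5.85e-15).

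Of the proteins of the cytosolic ribosome, 32 of 83 rose (38.6%) and 35 fell (42.2%) in Mettl3 cKO, with a median of -0.039. Among all genes tested 27.1% were called higher there and 28.0% lower. In Virma cKO 3 rose (3.61%) and 70 fell (84.3%), against 26.2% and 26.1% of all genes tested, with a median of -0.322. Many of these 83 genes have near-identical copies elsewhere in the genome, and how multi-mapping reads were treated is not stated.

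**Figure D4:**
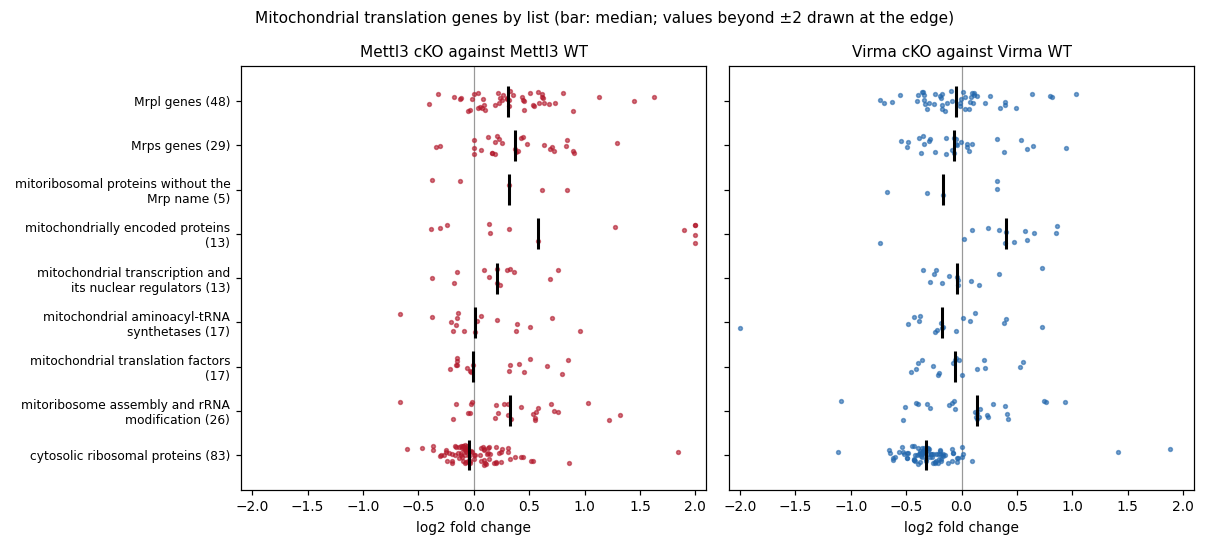
Log2 fold change of each tested gene in Mettl3 cKO against Mettl3 WT (left) and Virma cKO against Virma WT (right), by list, with the number tested in brackets and a bar at each list's median; points beyond ±2 are drawn at the edge. In the left panel the medians of the Mrpl and Mrps genes, 0.309 and 0.371, lie near that of the assembly factors, 0.325, and above that of the cytosolic ribosomal proteins, -0.039.

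Several members share exon bases with a neighbour, and whether strand was used in counting is not stated. In GENCODE M21, 33 of the 78 genes share exon bases with another gene, and 6 of them at least 30%. Mrpl43 shares 507 bases, 33.4% of its exons, with Twnk on the opposite strand; Twnk, the mitochondrial DNA helicase, had 50.9 and 51.4 CPM in Mettl3 cKO, against 47.1 and 43.6 in Mettl3 WT (0.17 ± 0.063, adjusted p = 0.0215), and 57.0 and 55.6 CPM in Virma cKO, against 56.4 and 54.8 in Virma WT (0.016 ± 0.074, adjusted p = 0.878). Mrps34 shares 63.4% of its exon bases with Mapk8ip3 on the opposite strand, which had 97.0 and 93.4 CPM in Mettl3 cKO, against 114 and 121 in Mettl3 WT (-0.30 ± 0.046, adjusted p = 6.04e-06), a change opposite to that of Mrps34. Mrps25 shares 69.8% with Nr2c2, and the values were 0.48 ± 0.045 for Mrps25 and -0.20 ± 0.077 for Nr2c2 in Mettl3 cKO. Mrpl18 shares 141 bases, 10.1% of its exons, with Tcp1 on the opposite strand. Tcp1 had means of 1455 CPM in Mettl3 cKO, 1607 in Mettl3 WT, 889.1 in Virma cKO and 1253 in Virma WT. Its log2 fold changes were -0.14 ± 0.025 in the Mettl3 and -0.50 ± 0.032 in the Virma line. Its part in the Mrpl18 level and changes was not tested. The 45 tested genes that share no exon base with another gene had 29 rises (64.4%) and 3 falls (6.67%) in Mettl3 cKO, with a median of 0.257. Among all genes tested 27.1% were called higher there and 28.0% lower. In Virma cKO the 45 had 8 rises (17.8%) and 19 falls (42.2%), against 26.2% and 26.1% of all genes tested, with a median of -0.085.

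Mrpl46 and Mrps11 are neighbours on opposite strands with starts close together and 173 shared exon bases, and they gave different values: 1.45 ± 0.054 and 0.23 ± 0.092 in Mettl3 cKO, and 0.79 ± 0.062 and -0.38 ± 0.12 in Virma cKO. In all, 32 of the genes have a tested neighbour that starts within 1000 bases on the opposite strand. Of the 30 such neighbours outside the family 10 rose and 9 fell in Mettl3 cKO, with a median of -0.054. Among all genes tested 27.1% were called higher and 28.0% lower. Of their 30 partners in the family 22 rose, with a median of 0.449. Of the 10 neighbours that rose, 7 stood beside a member that rose too, a share close to the 22 of 30 among all partners. Other pairs went opposite ways in Mettl3 cKO. Mrps34 gave 1.29 and Eme2 -0.71, Mrpl37 gave 0.33 and Cyb5rl -0.84, and Mrpl51 gave 0.54 and Ncapd2 -0.33. Tmem63b, beside Mrpl14, rose by 0.28 ± 0.046 and 0.39 ± 0.054 in the Mettl3 and the Virma line, and 1700007K13Rik, beside Mrps2, rose by 0.88 ± 0.12 in Mettl3 cKO and 0.80 ± 0.13 in Virma cKO.

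The members are short genes: their median exon length was 2533 bases, against 4371 over the 14141 tested genes with a length, and their median GC content was 49.7%, against 50.2%. Over the 77 genes the Mettl3 effect had a Spearman correlation of -0.298 with exon length and 0.394 with GC content, and over all genes -0.262 and 0.325. The Virma effect had -0.053 and 0.011 over the 77 genes and 0.06 and -0.035 over all. With both trends removed the Mettl3 median of the 77 genes was 0.276, 51 of them were called higher and 10 lower, against 24.1% and 26.5% of all genes tested; the 10 include Mrpl2 with -0.39 and an adjusted p of 6.09e-06, against -0.056 ± 0.058 (adjusted p = 0.43) before.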

How the data were processed

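RNA-seq was measured in 8 libraries of 4 groups, 2 each, assigned from the sample titles. The deposited file holds raw counts per gene symbol, which the authors made on the build mm39; the submitters' processing notes list the tools STAR 2.7.11b, Subread, Trim Galore, FastQC 0.12.1 and DESeq2. The annotation, the strand setting, the treatment of reads with several positions and which of the 2 kits named in the labels' protocols made which library: none of this is given in the sources used here.

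Counts were fitted across all genes with edgeR 4.0.16 in R 4.3.3 (TMM factors, robust quasi-likelihood test, filterByExpr over the 8 libraries, which kept 14229 genes) and adjusted by Benjamini-Hochberg over all genes tested, with a threshold of 0.05. The Virma cKO pair, within sampling noise over all genes (chi-square per degree of freedom 0.914, against 1.31 to 2.84 in the other pairs), entered as 1 sample, its rounded mean. That left 7 samples and 3 residual degrees of freedom, and this single sample is taken to vary as the other groups do. The quasi-likelihood test also shares the estimate of spread across genes, so it does not rest on these degrees of freedom alone. All p-values in the text come from this fit or, where a setting is named, from its repeat under that setting. The quasi-likelihood test returns no SE, so the SE given is the absolute log2 fold change divided by the square root of its F statistic. Levels are CPM with the TMM factors. Alternatives were DESeq2 1.42.0, other scalings and filters, a replicate block, a correction for length and GC content, the other line's control and leaving out each library.

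Exon lengths, GC content and shared exons come from GENCODE M21 and promoters from RefSeq (GRCm38.p6); the count table's build differs, so these serve as gene properties only. Lengths were matched for all 78 genes. Of the table's symbols, 3527 of 21812 had no count.

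The members, lists and naming rule were chosen with earlier results of these data known. Named with values were the 4 largest called rises and falls per subunit and comparison (average log2 CPM of at least 2, no overlap between cKO and WT libraries), up to 6 genes per pattern across lines and per direction of the difference, the 3 highest and lowest per length, the Mrps18 paralogs, and called genes of the other lists; further genes were named after their values were seen.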

Additional observations from a re-analysis of the deposited data

Results flagged for a closer look

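The effects of the 2 knockouts on the mitochondrial ribosomal protein genes differed between the lines by a direct test, the contrast of the Virma effect minus the Mettl3 effect in edgeR. The difference was called below 0 for 52 of the 77 genes tested and above 0 for 1, against 21.2% and 17.9% of all genes tested. On the log2 scale it was -0.987 for Mrpl12, -0.962 for Mrpl34, -0.907 for Mrpl36, -0.893 for Mrps12, -0.887 for Mrps18b and -0.859 for Mrps24, and 0.422 for Mrpl32. The Mettl3 WT and Virma WT libraries differ from each other as well, and each difference includes that gap.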

How the results depend on the processing

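With 2 libraries per group and the Virma cKO pair counted as 1 sample, the fit leaves 3 residual degrees of freedom. The quasi-likelihood test adds to these by sharing the estimate of spread across genes. The share of all genes called also moves when a library is left out, so those fits are summarised here by their medians. In the Mettl3 comparison, leaving out each library gave a median of 0.297 to 0.323. DESeq2 gave 47 higher (61.0%, against 18.7% of all genes tested) and 4 lower (5.19%, against 21.2%). With length and GC trends removed 51 genes were higher and 10 lower, against 24.1% and 26.5% of all genes tested, and the median was 0.276. With the replicate block added to that correction 10 were lower and the median was 0.267. In the Virma comparison, leaving out each library gave a median of -0.075 to -0.051. DESeq2 gave 17 lower (22.1%, against 20.4% of all genes tested), and library totals as scaling gave 26 higher, 13 lower and a median of 0.063, with shares near those of all genes (34.9% higher and 18.4% lower). For the difference of the effects, leaving out each library gave a median of -0.381 to -0.349. DESeq2 gave 0 above 0 and 39 below (50.6%, against 14.6% of all genes tested). Library totals as scaling gave 41 below (53.2%, against 15.9%). With length and GC trends removed 42 were below (54.5%, against 19.8%). The block with the length and GC correction gave 2 above 0 and 50 below (64.9%, against 24.2%). The median difference was -0.265 with library totals, -0.317 with length and GC trends removed and -0.312 with the block added. Between the WT groups, leaving out each library gave a median of 0.004 to 0.028. There DESeq2 gave 14 higher (18.2%, against 16.2% of all genes tested) and 11 lower (14.3%, against 15.3%).

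Replicate numbers share only a number: the deviations of same-numbered libraries from their group means correlated by 0.0155 in the Mettl3 and -0.0182 in the Virma line. With the number as a replicate block over 8 libraries, 55 genes were higher (71.4%) and 6 lower (7.79%) in Mettl3 cKO, against 29.1% and 29.5% of all genes tested. In Virma cKO 18 were higher (23.4%) and 33 lower (42.9%), against 32.2% and 30.7% of all genes. In the difference 1 was above 0 (1.3%) and 57 below (74.0%), against 22.9% and 25.3% of all genes.

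Single values of the Mettl3 comparison that changed sign were Mrps11 at -0.002 (block with length and GC correction), Gabpa at 0.071 and 0.07 and Ptcd3 at 0.102 and 0.102 (length and GC correction without and with the block), and, with Virma WT as control, Mrps5 at -0.096, Dap3 at 0.027, Tfb2m at -0.19, Vars2 at 0.437 and mt-Nd3 at -4.581. The cause was not tested.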
